A study of Homo sapiens with 12 samples.

Results

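Translational efficiency sets the ribosome-protected fragments (RPF, or footprints) of a transcript against the amount of its mRNA, and its change over 360 min of GSK-A1 was measured here in HEK293T cells. A transcript belonged to the comparison when its counts summed to 20 or more over the 4 footprint libraries and again over the 4 mRNA libraries of 0 and 360 min. This rule kept 9788 of the 18338 transcripts listed in any library of the series. It left out 1113 transcripts that reached the sum in footprints alone, 780 that reached it in mRNA alone and 6657 that reached it in neither. The members held between 95.7% and 97.9% of the counts of each library.

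HEK293T is a transformed human embryonic kidney cell line, and GSK-A1 inhibits PI4KA, the kinase that makes most of the phosphatidylinositol 4-phosphate of the plasma membrane. All cells carry the genotype label WT, for wild type. The dose of GSK-A1 is not given in the sources used here. The 4 groups compared were RPF at 0 min, RPF at 360 min, mRNA at 0 min and mRNA at 360 min, each with 2 replicates, and the 2 groups at 60 min entered the fit to help estimate the spread between replicates. Every library carries the treatment label GSK-A1, those of 0 min included, so the 0 min libraries serve as the untreated reference only through the time in their titles. The labels do not say whether replicates were separate cultures, so the p-values measure only the spread between these libraries, which may be technical. Totals ran from 546547 to 1165740 counts in the 4 footprint libraries compared and from 429026 to 762076 counts in the 4 mRNA libraries.

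Ribosomes translating an mRNA shield a short stretch of it from nuclease, so footprints report how much of each mRNA is being translated, while mRNA libraries report how much is present. When a cell changes the translation of a message without changing its amount, footprints move and mRNA does not. In the opposite case, known as translational buffering, the mRNA amount moves and the footprints stay level, so that efficiency changes against the mRNA. Control through 5′ terminal oligopyrimidine tracts of ribosomal protein mRNAs and through upstream open reading frames in stress response mRNAs are the best known examples of the former.

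The transcripts are identified by Ensembl transcript numbers, and 0 of the 9788 were found in the gene name tables used here. The files do not pair identifiers with names. Genes are therefore not named, the 32 gene classes listed for this work (ribosomal proteins, stress response, lipid synthesis and others) have no values, and transcripts are grouped below by their mRNA level, their efficiency and the way their mRNA and footprints moved. HEK293 markers could not be looked up for the same reason. Individual values are given for 4 identifiers.

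Of the 12 libraries, RPF 360 min replicate 2 stood apart in a way that bears on every efficiency value. Across the 9788 transcripts its log2 CPM (CPM, the count scaled by the library's total; prior count 2) correlated with the 6 mRNA libraries at 0.668 to 0.802. The 30 pairs formed by the other 5 footprint libraries and the mRNA libraries gave 0.579 to 0.754. Its closest mRNA library was mRNA 0 min replicate 2 (r = 0.802), against 0.694 to 0.713 for the other footprint libraries with that same library. Its correlation with the other footprint libraries was 0.842 to 0.867, whereas RPF 360 min replicate 1 reached 0.944. Efficiency was also less spread out across transcripts in it. Taken against the mean mRNA level at 60 min, the SD of log2 efficiency was 1.04 in this library and 1.07 to 1.21 in the other 5. These correlations are across transcripts of single libraries, which share depth and composition, and carry no p-value.

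**Figure D1:**
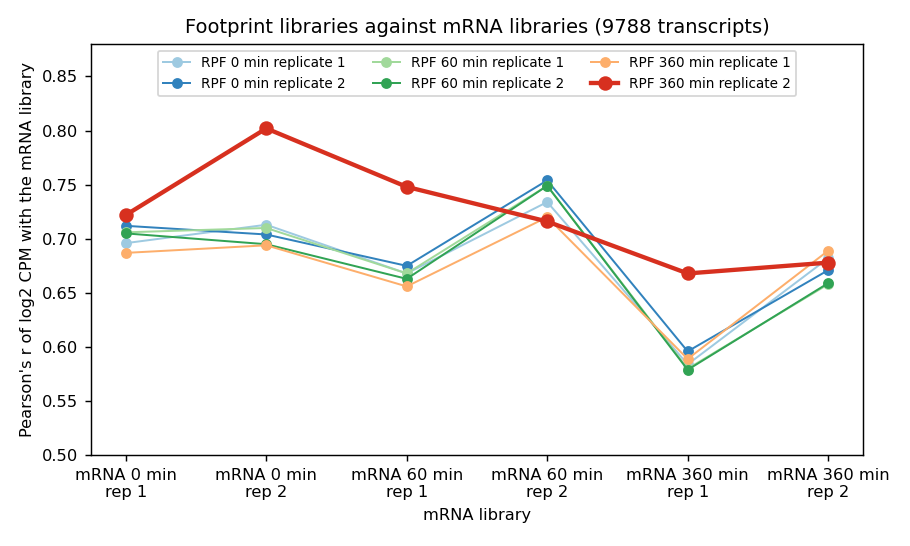
Pearson's r of log2 CPM across 9788 transcripts (vertical axis, starting at 0.5) between each of the 6 footprint libraries (lines) and each of the 6 mRNA libraries (horizontal axis). The thick red line is RPF 360 min replicate 2, which reaches 0.802 with mRNA 0 min replicate 2, where the other 5 footprint libraries lie between 0.694 and 0.713.

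Sets of transcripts that differed between replicates showed where these libraries were alike. Between 0 and 360 min, 613 transcripts had an mRNA level lower by 2 or more on the log2 scale in replicate 2. By that choice their median mRNA level was 88.4 CPM in 0 min replicate 2 and 10.7 CPM in 360 min replicate 2. In the footprint libraries, which the choice did not use, their median was 51.5 CPM in 360 min replicate 2 and between 23.9 and 27.7 CPM in the other 5. In the other mRNA libraries it was 29.7 CPM at 0 min replicate 1, 50.5 and 23.3 CPM at 60 min, and 34.5 CPM at 360 min replicate 1. Over all members the medians of the 12 libraries lay between 31.6 and 36.8 CPM. These transcripts were thus high in RPF 360 min replicate 2, mRNA 0 min replicate 2 and mRNA 60 min replicate 1, and not in the partner of any of the 3. In mRNA 360 min replicate 1, whose partner was low by the choice, they lay near the median of all members. That library too correlated more with RPF 360 min replicate 2 (r = 0.668) than with the other footprint libraries (0.579 to 0.596).

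The same libraries came up when the choice was made in footprints. In replicate 2, 141 transcripts had footprints higher by 2 or more at 360 min, against 14 in replicate 1. The 141 had a median of 55.1 CPM in RPF 360 min replicate 2 and 14.1 CPM in RPF 360 min replicate 1. Their median mRNA level, which the choice did not use, reached 82.6 CPM in 0 min replicate 2, beside 29.7 CPM in 0 min replicate 1. For replicates 1 and 2, it was 48.2 and 17.7 CPM at 60 min and 43.1 and 17.9 CPM at 360 min. In these transcripts mRNA 360 min replicate 1 was thus also above its partner. In replicate 1, 259 transcripts had mRNA lower by 2 or more. Their median was 2.87 CPM in mRNA 360 min replicate 1, 14.3 to 22 CPM in the other 5 mRNA libraries and 20.2 to 26.3 CPM in the 6 footprint libraries. This choice takes transcripts that were low in mRNA 360 min replicate 1. It could therefore not show a pattern held by transcripts that were high there. The 14 transcripts with footprints higher by 2 or more in replicate 1 had a median of 73.3 CPM in mRNA 360 min replicate 1 and 30.3 to 41.7 CPM in the other 5 mRNA libraries. The cause of the shared pattern was not tested. Counts of transcripts with a changed efficiency, and of buffered and other categories, are given also without RPF 360 min replicate 2 or mRNA 0 min replicate 2. The classes by mRNA change and by efficiency or level at 60 min were not recomputed without a library.

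**Figure D2:**
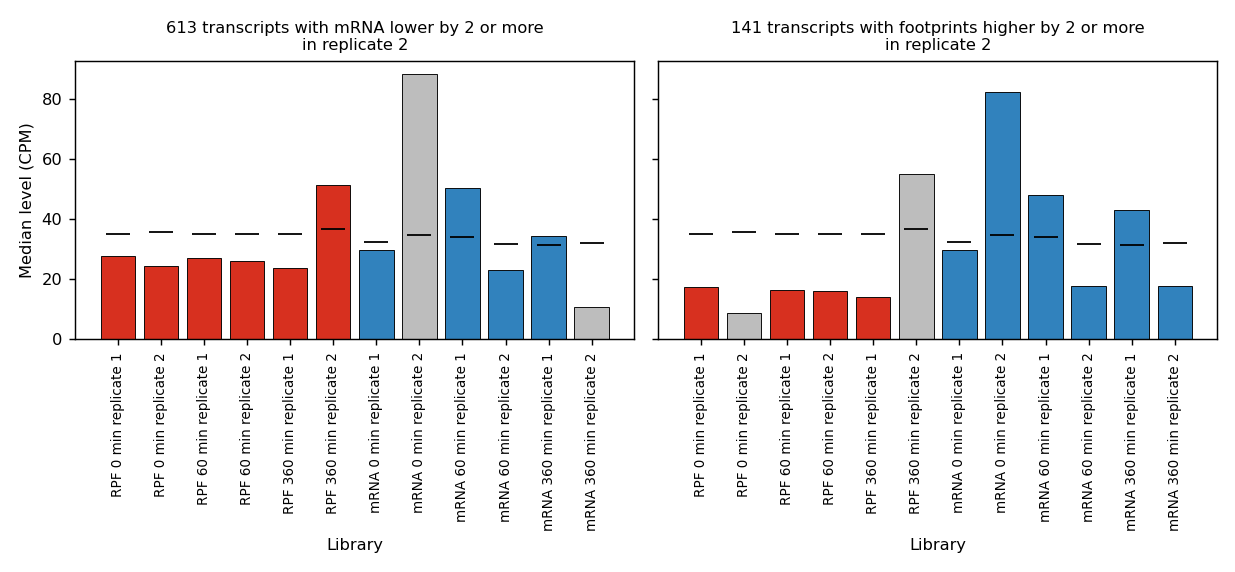
Median level in CPM (vertical axis from 0) in each of the 12 libraries (bars) for 613 transcripts whose mRNA was lower by 2 or more in replicate 2 (left) and for 141 transcripts whose footprints were higher by 2 or more in replicate 2 (right). Grey bars are the 2 libraries that made the choice, red bars other footprint libraries, blue bars other mRNA libraries, and black dashes the median of all 9788 members; RPF 360 min replicate 2 at 51.5 CPM stands above the other footprint bars on the left, and mRNA 0 min replicate 2 at 82.6 CPM above the other mRNA bars on the right.

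The first comparison asked which transcripts were translated more or less efficiently at 360 min than at 0 min. No transcript passed. In edgeR's quasi-likelihood test of the assay by time interaction, 0 of 9788 transcripts (0%) passed 0.05 after Benjamini-Hochberg adjustment, the smallest adjusted p-value being 0.839. DESeq2 and limma voom with sample weights also gave 0. The unadjusted p-value was under 0.05 for 573 transcripts (5.85%), of which 408 were higher (4.17% of those tested) and 165 lower (1.69%). The middle 50% of log2 efficiency changes lay between -0.46 and 0.63, and the median SE of a change was 0.746, so a change of 1 was less than 2 SE.

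The surplus of higher over lower efficiencies depended on RPF 360 min replicate 2 and mRNA 0 min replicate 2. Without RPF 360 min replicate 2, 204 transcripts were higher and 214 lower at an unadjusted p-value under 0.05. Without mRNA 0 min replicate 2 the numbers were 126 and 131, and without both 127 and 204. Leaving out other libraries also moved the count by over 1.5 times. It was 625 higher and 319 lower without RPF 360 min replicate 1, 626 and 226 without mRNA 0 min replicate 1, and 691 and 263 without mRNA 360 min replicate 1. In those 3 fits higher changes still outnumbered lower ones.

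An efficiency change is the footprint change minus the mRNA change, so either can make it. Most of the 408 higher values came from lower mRNA rather than from more footprints. Their median log2 change was -1.51 in mRNA and 0.873 in footprints. The mRNA change was -1 or lower for 338 of them, and the footprint change was 1 or more for 154. In 324 of the 408 (79.4%) the mRNA change was the larger of the pair, against 64% of all members. By library, the median of the 408 was 28.6 and 26.8 CPM in RPF 0 min, 33.1 and 53.3 CPM in RPF 360 min, 33.6 and 66.7 CPM in mRNA 0 min, and 20.1 and 14.3 CPM in mRNA 360 min, for replicates 1 and 2. Replicate 2 alone therefore held a median efficiency change of 3.3 and replicate 1 one of 0.715. Of the 408, 210 (51.5%) were among the 613 transcripts described above, which is 34.3% of that set, beside 4.17% of all members. Of the 259 transcripts with mRNA lower by 2 or more in replicate 1, 42 (16.2%) were among the 408. A lower mRNA raises the efficiency change, so part of both overlaps is built into the choice. Without both libraries that stood apart, the 127 higher transcripts had medians of -1.52 in mRNA and 0.539 in footprints, and mRNA was the larger change in 105. That fit kept mRNA 360 min replicate 1, which shared the pattern in part. The tests chose all these transcripts, so their medians describe the choice.

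The 165 lower values were more alike between replicates. Their median efficiency change was -1.29 in replicate 1 and -1.89 in replicate 2. Median mRNA levels were 31 and 29 CPM at 0 min and 60.3 and 64.3 CPM at 360 min, and the mRNA change was 1 or more for 108 of the 165. Footprints moved less, from 35.1 and 34.6 CPM to 26.7 and 22.1 CPM, and their change was -1 or lower for 30. At 60 min the mRNA median of these transcripts was 35.2 and 34.5 CPM, close to the 0 min values.

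A second description, which uses no p-value, asked whether efficiency moved one way whichever library of each group was taken. With 2 libraries in each of 4 groups there are 16 such combinations. All 16 gave a higher efficiency at 360 min for 741 transcripts (7.57%) and a lower one for 717 (7.33%). By this measure, which gives no weight to size, both directions were about equally common over all members, but not at each depth, as given below. With library totals alone as the scaling the counts were 736 higher and 617 lower. With 1 library fewer there are 8 combinations, and the counts were 1516 and 1494 without RPF 360 min replicate 2, 1233 and 1245 without mRNA 0 min replicate 2, and 1979 and 1871 without RPF 360 min replicate 1. The separated transcripts with higher efficiency had a median log2 change of 1.45, made of -1.11 in mRNA and 0.372 in footprints. Those with lower efficiency had a median of -1.05, made of 0.761 in mRNA and -0.294 in footprints. In both directions the mRNA part was the larger, in 566 of 741 and 515 of 717 transcripts.

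Taken alone, neither assay gave a transcript past the threshold. In footprints, 0 of 9788 (0%) had an edgeR adjusted p-value under 0.05, and the unadjusted p-value was under 0.05 for 227 (2.32%). In mRNA it was 0 (0%), with a smallest adjusted p-value of 0.185, and 1057 (10.8%) at an unadjusted p-value under 0.05, 534 higher and 523 lower. DESeq2 called 14 transcripts in mRNA and 0 in footprints. The top 10 transcripts by count held 14.1% and 14.7% of the counts in mRNA at 360 min and 8.07% to 10.7% in the other 4 mRNA libraries, and the part of this in the mRNA changes was not tested. Changes of 1 or more in size were fitted for 694 transcripts in footprints (7.09%), 1844 in mRNA (18.8%) and 2382 in efficiency (24.3%). Efficiency changes were the most widely spread of the 3 and held the errors of both assays.

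Replicates did not rank transcripts alike. The efficiency change from replicate 1 libraries and that from replicate 2 libraries, which share no library, correlated at r = -0.127 (Spearman's rho -0.0682) across 9788 transcripts. For footprints the value was -0.0194 and for mRNA 0.0572. Exchanging the 0 min libraries between replicates gave -0.111, -0.262 and 0.139 for efficiency, footprints and mRNA. Restricting to the 3585 transcripts with at least 100 summed counts in each assay gave -0.192, -0.0993 and 0.0338, so deeper coverage did not bring the replicates together. These are values across transcripts and are given without a p-value.

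Depth was checked over the whole range. For the 3467 transcripts whose smaller summed count was 20 to 49, the median SE of the efficiency change was 0.936, and for the 1177 transcripts with 200 to 499 counts it was 0.595. Above that the SE stopped shrinking. The median was 0.64 for 254 transcripts with 500 to 999 counts and 0.936 for 212 transcripts with 1000 or more. The share with all 16 combinations on 1 side was 16.6% in the shallowest range and 5.66% in the deepest. Their direction differed by depth, with the scaling over all members. In the shallowest range 358 were higher and 216 lower, and at 100 to 199 counts 118 and 162 of 1942. At 200 to 499 counts they were 46 and 120, at 500 to 999 counts 3 and 26, and at 1000 or more 1 and 11. With the scaling computed on the 3585 transcripts of 100 or more counts alone, 235 were higher and 242 lower. The lean to lower efficiency at depth thus depended on the scaling. At an unadjusted edgeR p-value under 0.05, higher changes outnumbered lower ones in every range. They were 147 and 57 in the shallowest and 8 and 1 in the deepest. At the edge of the membership rule, 782 transcripts with a smaller sum of 20 to 24 had a median absolute log2 efficiency change of 0.645, and 863 with a sum of 15 to 19, just outside it, had 0.618.

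The buffering of mRNA changes was examined next. An mRNA was taken as changed when its fitted log2 change was at least 1 in size and both 360 min libraries lay beyond both 0 min libraries. This held for 571 higher (5.83% of all members) and 812 lower mRNAs (8.3%). Footprints changed by the same rule for 307 higher (3.14%) and 174 lower transcripts (1.78%). Of the 571 transcripts with higher mRNA, 357 (62.5%) had a footprint change under 0.5 in size and are called buffered, and 47 (8.23%) had a footprint change of 1 or more in the same direction. Of the 812 with lower mRNA, 491 (60.5%) were buffered and 33 (4.06%) had footprints lower by 1 or more. Among the 8405 transcripts whose mRNA had not changed by this rule, 70% had a footprint change under 0.5 in size. Over all 9788 members, footprints were higher by 1 or more for 489 and lower by 1 or more for 205. The flat shares where mRNA changed were thus below 70%. The difference between these shares was not tested.

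The median footprint change was 0.246 where mRNA was higher by a median of 1.28, and -0.1 where mRNA was lower by a median of 1.41. In replicate 1 these footprint medians were 0.11 and -0.0818, and in replicate 2 they were 0.339 and -0.133. The medians thus had the sign of the mRNA change in each replicate. Single transcripts were divided. Where mRNA was higher, footprints changed by 0.5 or more in the same direction for 172 and in the opposite one for 42. Where mRNA was lower, these numbers were 169 and 152. Footprint changes also leaned higher over all members, being higher by 1 or more for 489 and lower by 1 or more for 205. Such a lean adds to the same direction where mRNA was higher and to the opposite one where it was lower. Its part in these numbers was not tested, so they do not measure how far footprints tracked mRNA. The choice of mRNAs used the mRNA libraries alone. Error in mRNA enters such a choice and inflates the mRNA change, so the gap between assays is not a measure of buffering by itself.

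Counted over both directions, 848 of the 9788 members were buffered and 60 followed (both assays changed the same way). Another 188 changed in footprints with an mRNA change under 0.5 in size, and 41 changed in opposite directions. For higher and lower mRNA, buffered made up 3.65% and 5.02% of all members, followed 0.358% and 0.255%, and opposite 0.0715% and 0.347%. Those with higher and lower footprints alone made up 1.03% and 0.889%. Footprints changed by under 0.5 in size for 68.8% of all members, which also bears on how many count as buffered. The 357 buffered transcripts with higher mRNA had a median mRNA level of 36.5 CPM at 60 min, near the 33.6 CPM of all members. The 491 with lower mRNA were less abundant, at 23.2 CPM, and rested on a median of 50 summed mRNA counts. Their log2 efficiency at 60 min, a time the choice did not use, was 0.471 at the median, against -0.315 for the buffered transcripts with higher mRNA and 0.0392 for all members. At the median, buffered transcripts with lower mRNA were thus more efficient at 60 min than those with higher mRNA, as a description without a test. This was not particular to buffered transcripts. For higher and lower mRNA the medians were -1 and 0.0669 in followed transcripts, and -0.0355 and 0.121 in those of no category.

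Transcripts whose footprints changed alone were few and shallow. The 101 with higher footprints had a median footprint change of 1.23 and a median log2 efficiency at 60 min of -0.624, below that of all members. The 87 with lower footprints had a median change of -1.25 and an efficiency at 60 min of -0.104. Both rested on medians of 52 and 61 summed footprint counts. Of the 41 opposite transcripts, 34 had lower mRNA with higher footprints and 7 the reverse. Every one of the 41 had an unadjusted efficiency p-value under 0.05 in the edgeR test, which the rule nearly fixes. Without RPF 360 min replicate 2, a footprint change needs only 1 library at 360 min. Of the same 9788 members, 789 were then buffered, 142 followed, 451 in footprints alone and 44 opposite. Without mRNA 0 min replicate 2 they were 1086, 88, 215 and 28.

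**Figure D3:**
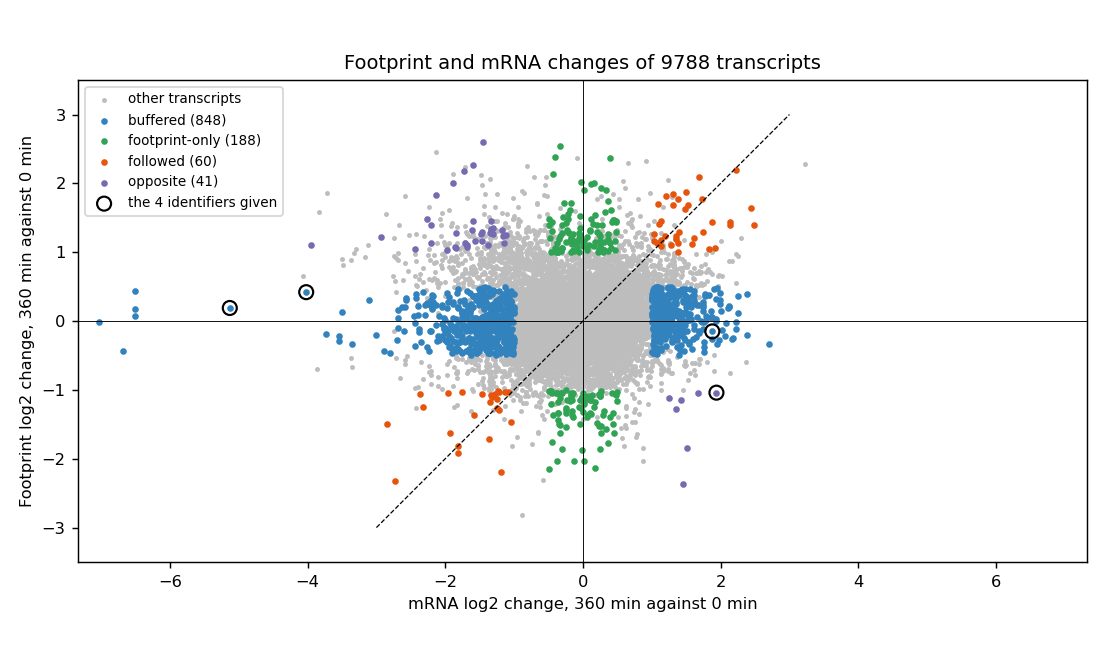
Fitted log2 change of footprints (vertical axis) against that of mRNA (horizontal axis), 360 min against 0 min, one point per transcript (n = 9788). Colours mark the 848 buffered, 188 footprint-only, 60 followed and 41 opposite transcripts, rings the 4 identifiers given in the text, and the dashed line equal changes; few coloured points lie along it, and most lie along the horizontal axis.

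To keep the error of the chosen mRNA values out of the reading, transcripts were sorted by the mRNA change of replicate 1, and the mRNA of replicate 2 and the footprints were read. The 819 transcripts with an mRNA change of 1 to 2 in replicate 1 had a median mRNA change of 0.125 in replicate 2. Their footprint change was 0.0807 in replicate 1 and 0.422 in replicate 2. The 998 transcripts at -2 to -1 had a median of -0.226 in the mRNA of replicate 2, and -0.0218 and -0.232 in footprints. In both classes the medians of the other libraries had the sign of the mRNA change that sorted them, at under 0.5 in size. The 42 transcripts over 2 had -0.294 in the mRNA of replicate 2, -0.0776 in footprint replicate 1 and 0.46 in footprint replicate 2. Across all 9788 transcripts the slope on the replicate 1 mRNA change was 0.0715 for the mRNA of replicate 2 and 0.129 for the mean footprint change. Taken singly, footprint replicate 1 gave 0.0432 and footprint replicate 2 gave 0.215. The part of the shared pattern in the values of footprint replicate 2 was not tested.

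Sorting by replicate 2 reversed the footprint slope, to -0.0543, with 0.0601 in footprint replicate 1 and -0.169 in footprint replicate 2. The mRNA slope was then 0.0457. The lowest class stood out, and the slope was not recomputed without it. The 613 transcripts at -2 or lower had a median mRNA change of 0.39 in replicate 1, a footprint change of -0.208 in replicate 1 and a footprint change of 1.26 in replicate 2. At the other end, the 119 transcripts with an mRNA change over 2 in replicate 2 had 0.913 in the mRNA of replicate 1 and 0.255 and 0.403 in the footprints. In that class the mRNA of the other replicate moved the same way and the footprint medians were under 0.5, whereas in the class over 2 of replicate 1, given above, the mRNA of the other replicate was lower.

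**Figure D4:**
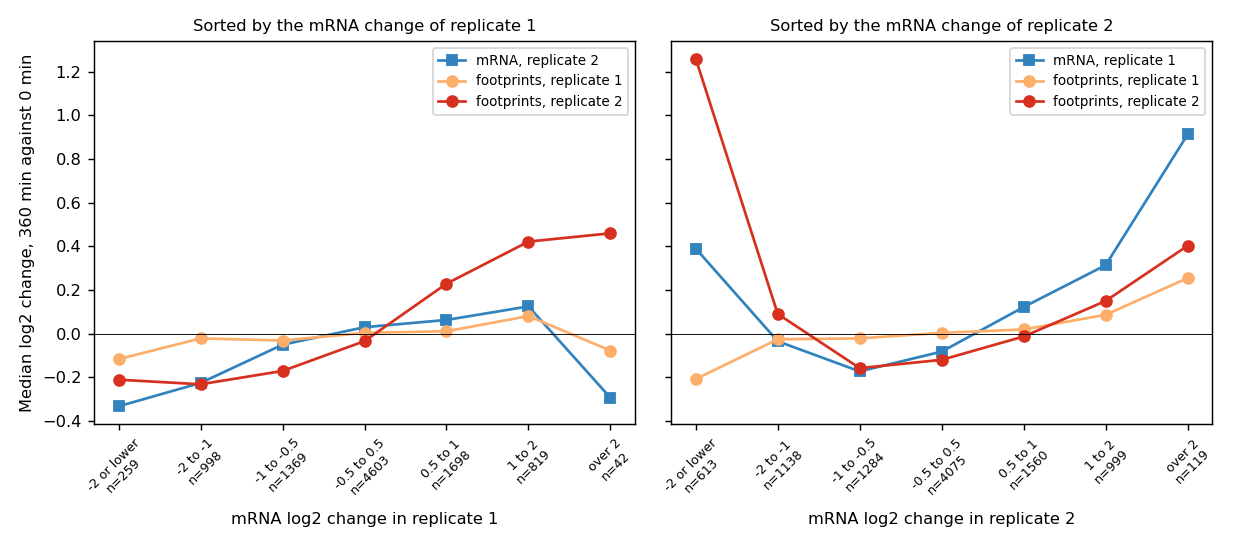
Median log2 change, 360 min against 0 min (vertical axis), of the mRNA replicate not used for sorting (blue), footprint replicate 1 (orange) and footprint replicate 2 (red), in classes of the mRNA change of replicate 1 (left) or replicate 2 (right), with n transcripts per class. On the right, the class at -2 or lower shows 1.26 in footprint replicate 2 and -0.208 in footprint replicate 1, while the class over 2 shows 0.913 in mRNA and 0.255 and 0.403 in footprints.

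Grouping by efficiency at 60 min, in libraries that enter neither side of the change, separated the footprint replicates again. This efficiency holds mRNA 60 min replicate 1, which shared the pattern of RPF 360 min replicate 2 described above. That mRNA library had r = 0.748 with RPF 360 min replicate 2 and 0.656 to 0.675 with the other footprint libraries. For the 232 transcripts with a log2 efficiency of -2 or lower at 60 min, the median footprint change at 360 min was 0.0624 in replicate 1 and 0.753 in replicate 2. For the 1114 transcripts at -2 to -1 it was 0.0174 and 0.422. For the 1237 at 1 to 2 it was -0.00896 and -0.263. In replicate 2 the medians thus went from higher footprints at low efficiency to lower footprints at high efficiency. In replicate 1 they lay near 0 in these classes. The difference between replicates was not tested, nor was the part of the shared pattern in the replicate 2 medians. In the same classes the mRNA change was 0.765 and 0.363 for the lowest efficiencies, and -0.255 and -0.174 for 1 to 2, in replicates 1 and 2. The 317 transcripts with an efficiency over 2 had a median fitted efficiency change of 0.338, made of -0.408 in mRNA and -0.00118 in footprints. In replicates 1 and 2 the mRNA medians were -0.0542 and -0.563, and the footprint medians 0.116 and -0.187. The efficiency medians of replicates 1 and 2 were 0.0932 and 0.26. Of the 317, 14 (4.42%) were higher at an unadjusted edgeR p-value under 0.05, near the 4.17% of all members.

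By abundance, efficiency changed little at the median. The fitted median was 0.17 for 678 transcripts under 10 CPM of mRNA at 60 min, 0.121 for 3774 at 10 to 30 CPM, -0.0043 for 3768 at 30 to 100 CPM, -0.0496 for 1167 at 100 to 300 CPM, 0.0102 for 275 at 300 to 1000 CPM and 0.173 for 126 at 1000 CPM or more. In both classes at 300 CPM or more the single replicates had the opposite sign to the fitted median. At 300 to 1000 CPM they gave -0.226 and -0.278, and at 1000 CPM or more -0.102 and -0.415, with a median SE of 1.01 in the latter. The replicates also differed in sign under 10 CPM (-0.0491 and 0.194) and at 30 to 100 CPM (0.0142 and -0.141). The sign for all these classes is therefore uncertain.

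Among 619 transcripts with higher and 662 with lower efficiency in all 16 combinations and a mean of at least 10 CPM in each assay, the 2 with the smallest unadjusted p-value in each direction are described. They were picked for small p-values, which overstates a change, and none passed after adjustment. The genes of these identifiers were not analysed here.

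ENST00000370905 had lower footprints and higher mRNA at 360 min. Its footprint level was 15.7 and 14.5 CPM at 0 min and 5.63 and 9.19 CPM at 360 min, for replicates 1 and 2, from 17, 13, 4 and 5 counts. Its mRNA level was 181 and 86.9 CPM at 0 min and 586 and 445 CPM at 360 min. The groups did not overlap in either assay. The log2 change was -1.04 (SE 0.633) in footprints and 1.94 (SE 0.453) in mRNA. The efficiency change came to -2.98 (SE 0.772; edgeR adjusted p = 0.839, unadjusted 0.00149). Replicates 1 and 2 alone gave -2.83 and -2.86. It was also the least efficient of the 4 at 60 min, with a log2 efficiency of -4.32 and footprints of 10.9 and 2.93 CPM beside 154 and 189 CPM of mRNA.

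ENST00000245796 was a buffered transcript with higher mRNA. Its mRNA level was 123 and 104 CPM at 0 min and 371 and 466 CPM at 360 min. Its footprint level was 36 and 61.3 CPM at 0 min and 38 and 49.6 CPM at 360 min. The mRNA groups did not overlap and the footprint groups did. The mRNA change was 1.88 (SE 0.376) and the footprint change -0.15 (SE 0.399). Its efficiency change came to -2.03 (SE 0.545; edgeR adjusted p = 0.839, unadjusted 0.00198), and replicates 1 and 2 gave -1.5 and -2.42. At 60 min its mRNA was 91.6 and 79.3 CPM, not higher than at 0 min.

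ENST00000256443 was buffered with lower mRNA. Its footprint level was 24.9 and 20.1 CPM at 0 min and 29.5 and 31.2 CPM at 360 min. Its mRNA level was 29.7 and 10.1 CPM at 0 min, from 23 and 7 counts, and 0 and 1.79 CPM at 360 min, from 0 and 1 count. A count of 0 in mRNA 360 min replicate 1 allows up to 8.62 CPM. Summed over replicates, the mRNA level at 0 min was 18.6 times that at 360 min, with an exact 95% interval of 3.09 to 759 that covers counting error only. The fitted efficiency change came to 4.44 (SE 1.18; edgeR adjusted p = 0.839, unadjusted 0.00183). Replicates 1 and 2 gave 3.84 and 2.11. These single-replicate values use the prior count of 2, which draws changes from few counts toward 0. The fitted size rests on 1 mRNA count at 360 min. Without mRNA 360 min replicate 2, which held that count, it was 7.4.

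ENST00000396005 had the same form with a wider spread. Its mRNA level was 14.2 and 73.9 CPM at 0 min and 0 and 1.79 CPM at 360 min. Its footprint level was 22.2 and 16.7 CPM at 0 min and 12.7 and 33.1 CPM at 360 min, so the footprint groups overlapped. In both assays the highest value was in a library that stood apart, mRNA 0 min replicate 2 and RPF 360 min replicate 2. Summed over replicates, the mRNA level at 0 min was 38.5 times that at 360 min, with an exact 95% interval of 6.65 to 1540 for counting error only. Its fitted efficiency change came to 5.32 (SE 1.41; edgeR adjusted p = 0.839, unadjusted 0.00178), a size that again rests on 1 mRNA count at 360 min. Replicates 1 and 2 gave 1.98 and 5. Without those 2 libraries together the fitted change was 2.89, and without mRNA 360 min replicate 2 it was 8.28. At 60 min its mRNA was 8.22 and 7.47 CPM, lower than in either 0 min library.

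**Figure D5:**
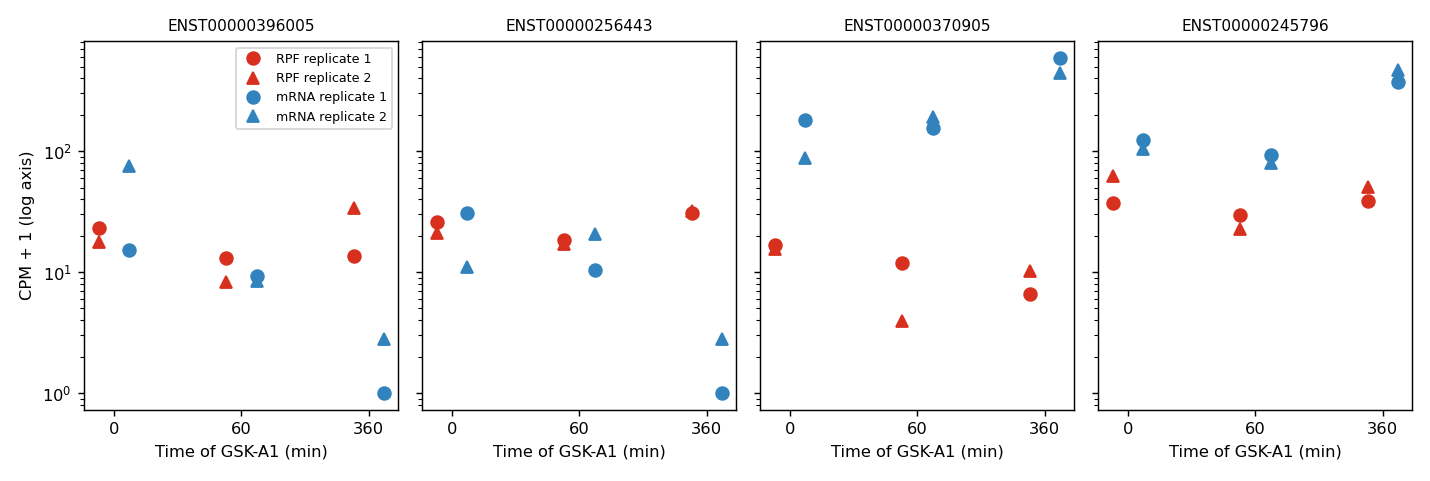
CPM + 1 on a log axis (vertical) at 0, 60 and 360 min of GSK-A1 (horizontal) for the 4 identifiers, with footprints in red, mRNA in blue, circles for replicate 1 and triangles for replicate 2. In the 2 panels on the left the mRNA points at 360 min are 0 and 1.79 CPM, and in the 2 on the right the mRNA points at 360 min lie above all others while footprints are level or lower.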

How the data were processed

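Footprints and polyadenylated mRNA of HEK293T cells were counted per Ensembl transcript in 12 libraries. The authors deposited raw counts with no normalization, 1 file per library, listing only transcripts with a count; a transcript not listed was given 0. The submitters' processing notes name cutadapt 2.8, Bowtie 1.2.3 and STAR 2.7.10a without roles. The genome build, annotation, counted region, strand use and counting program are not given in the sources used here, so reads shared by overlapping or near-identical transcripts are uncertain. Per the labels' protocols, RNase I digestion and gel selection of fragments gave the footprints.

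Groups and replicate numbers came from titles. Counts were fitted in R 4.3.3 with edgeR 4.0.16 (estimateDisp, glmQLFit, glmQLFTest), 6 groups of assay and time, TMM factors within each assay, and Benjamini-Hochberg adjustment over 9788 transcripts; the common dispersion was 0.113. Each SE was taken as the absolute change over the root of the quasi-likelihood F statistic. Single-replicate changes are differences of log2 CPM with prior count 2, which the fit does not use. For 5 members with 0 counts in both mRNA libraries of 360 min, the fitted changes depend on the default prior count of edgeR's fit. The pipeline was tested on simulated data. DESeq2 1.42.0, limma 3.58.1, other scalings, filters and designs were alternatives. Members and lists were chosen with earlier results of these data known. Identifiers to print were the first 2 in each direction by p-value among separated transcripts at 10 CPM or more, since no names could be matched; the gene class medians were not run for that reason.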

Additional observations from a re-analysis of the deposited data

How the results depend on the processing

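After adjustment, the number of transcripts called at 0.05 was 0 for efficiency and for footprints in each of the 21 alternative fits run. For mRNA it was 0 in 19 of 21 and 14 with DESeq2; leaving out libraries gave 0 to 1, the 1 without mRNA 360 min replicate 1. With the replicate number as a replicate block within each assay, 0 passed for efficiency, and 374 were higher and 198 lower at an unadjusted p-value under 0.05; with a block shared by both assays these were 208 and 95. The labels do not tie a number to a culture, and correlations of the replicate differences between groups ran from -0.374 to 0.308. Against 408 higher and 165 lower in the fit reported, there were 693 and 274 without a filter on counts, 158 and 49 at 100 or more summed counts, 374 and 95 with DESeq2, 216 and 118 with voom, and 126 to 691 and 119 to 319 leaving out libraries. Requiring 100 summed counts left 3585 transcripts, with the scaling computed on these alone. Of them, 235 separated higher and 242 lower, and 215 were buffered, 6 followed, 21 footprint-only and 2 opposite. A change of 1.5 in place of 1 gave 280, 9, 39 and 5. With RPF 360 min replicate 1, its replicate 2 or mRNA 0 min replicate 2 left out, the separated counts were 1233 to 1979 higher and 1245 to 1871 lower; without either of the latter, followed counts were 88 to 142 and footprint-only counts 215 to 451. The mRNA slope was 0.0457 with replicate 2 choosing and 0.122 with 0 min libraries exchanged. The footprint slope reversed to -0.0543 with replicate 2 choosing, was 0.0141 with 0 min libraries exchanged, and ranged from 0.0432 to 0.215 with 1 footprint replicate. A stricter count minimum or change leaves fewer transcripts, no filter tests more (16605), and a library left out leaves fewer combinations; otherwise the cause was not tested. The 4 identifiers kept their direction and none passed in any alternative that tested them. Only ENST00000245796 was tested at 100 or more summed counts, so it had 21 alternatives and each of the others 20. Efficiency changes ran from 2.89 to 8.28 for ENST00000396005 and from 3.44 to 7.4 for ENST00000256443. They ran from -3.64 to -2.55 for ENST00000370905 and from -2.37 to -1.61 for ENST00000245796. Left-out libraries chosen after seeing the data were RPF 360 min replicate 2 with mRNA 0 min replicate 2, and those for separated counts, categories and slopes.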
